A study of Homo sapiens with 16 samples.

Results

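Some promoters carry H3K4me3 and H3K27me3 together, and the regions described here are those where peaks of both marks met in the same cells. For each form of NSD2, the H3K4me3 peaks that overlapped an H3K27me3 peak of the same form by at least 1 bp were taken, and these peaks were merged over the 4 forms. The result was 216 regions, against 8388 H3K4me3 peaks of the series merged over forms in the same way. The regions were thus chosen by the measured peak positions of both marks, and the overlap within a form is a description that supports nothing. Forms are given throughout as D1240A, F1295A, TKO and WT.

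ChIPmentation (chromatin immunoprecipitation with adaptors added by a transposase) was used on TKO cells, which derive from the KMS-11 multiple myeloma line. All groups share the labelled genotype WHSC1(+/-), where WHSC1 is another name of NSD2, and the cell type is labelled plasma cell. The groups are TKO cells with the D1240A mutant of NSD2, TKO cells with its F1295A mutant, cells labelled TKO with no form named, and TKO cells with wild type NSD2 (WT). For every form there were 2 samples of H3K27me3 and 1 each of H3K4me3 and IgG, and the labels do not give the promoter or the number of clones behind the expressed forms. A single list per form and mark was analysed, with both H3K27me3 samples of a form in the same list, so no difference between forms has a replicate check, no test between forms was made, and the read depth is unknown. Of 10 plasma cell marker genes, 7 had H3K4me3 at the gene start in D1240A, 8 in F1295A, 6 in TKO and 8 in WT, while of 22 T, NK and myeloid markers 1, 1, 0 and 1 had it, of 25 B cell genes 2, 3, 2 and 2, and of 16 stromal markers 1 in each form.

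H3K4me3 is laid down at promoters in use, and H3K27me3 is written by Polycomb repressive complex 2 at silent genes. Regions with both, called bivalent in embryonic stem cells, are known there at the promoters of developmental regulators, most of them rich in CpG dinucleotides. NSD2 methylates H3K36, and H3K36 methylation hinders Polycomb repressive complex 2 on the same histone tail. The lists come from separate precipitations of cell populations, so both marks on a single nucleosome, on different alleles or in different cells cannot be told apart.

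The promoters below are shown as examples of regions with both marks in every form, in WT and neither mutant, and in each form alone: each is the first gene of its set, by bases under both marks, that has a sequence in the RefSeq table of GRCh38.p14. They run 5′ to 3′ on the strand of the gene, from 250 bases before to 50 bases after its start, with each CpG dinucleotide in capitals.
LHX4: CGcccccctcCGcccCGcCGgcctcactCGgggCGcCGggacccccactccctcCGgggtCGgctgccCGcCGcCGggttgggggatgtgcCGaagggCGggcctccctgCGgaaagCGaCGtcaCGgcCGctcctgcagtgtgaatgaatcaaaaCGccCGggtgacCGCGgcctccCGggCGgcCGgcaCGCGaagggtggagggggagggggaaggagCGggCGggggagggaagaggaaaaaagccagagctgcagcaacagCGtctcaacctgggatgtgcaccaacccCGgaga
EFNA3: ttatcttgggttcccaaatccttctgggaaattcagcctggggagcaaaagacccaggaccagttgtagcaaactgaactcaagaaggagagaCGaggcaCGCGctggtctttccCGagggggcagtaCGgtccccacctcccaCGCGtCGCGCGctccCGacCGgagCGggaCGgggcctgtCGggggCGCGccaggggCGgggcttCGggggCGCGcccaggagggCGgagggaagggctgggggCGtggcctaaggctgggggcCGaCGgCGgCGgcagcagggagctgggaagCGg
APH1A: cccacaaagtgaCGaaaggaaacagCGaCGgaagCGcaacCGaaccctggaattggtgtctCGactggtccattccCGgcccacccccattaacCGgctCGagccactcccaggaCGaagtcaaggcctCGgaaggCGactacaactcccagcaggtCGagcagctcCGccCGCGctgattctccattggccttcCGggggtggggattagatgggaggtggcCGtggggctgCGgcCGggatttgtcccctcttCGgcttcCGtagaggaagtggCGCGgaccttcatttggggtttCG
COXFA4L2: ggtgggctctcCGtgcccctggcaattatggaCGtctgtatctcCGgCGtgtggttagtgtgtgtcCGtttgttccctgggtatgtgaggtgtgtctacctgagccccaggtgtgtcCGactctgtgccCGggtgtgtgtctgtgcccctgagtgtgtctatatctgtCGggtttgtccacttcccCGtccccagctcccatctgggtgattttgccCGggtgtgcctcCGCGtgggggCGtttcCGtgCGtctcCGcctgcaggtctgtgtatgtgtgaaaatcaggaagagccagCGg
IGF2BP2: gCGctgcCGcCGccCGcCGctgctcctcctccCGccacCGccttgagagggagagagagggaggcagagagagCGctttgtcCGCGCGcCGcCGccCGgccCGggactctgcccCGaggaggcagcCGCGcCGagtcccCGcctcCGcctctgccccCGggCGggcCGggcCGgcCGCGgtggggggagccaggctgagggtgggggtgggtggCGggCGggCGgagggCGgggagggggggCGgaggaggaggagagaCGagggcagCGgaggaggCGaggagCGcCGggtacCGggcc
TXNIP: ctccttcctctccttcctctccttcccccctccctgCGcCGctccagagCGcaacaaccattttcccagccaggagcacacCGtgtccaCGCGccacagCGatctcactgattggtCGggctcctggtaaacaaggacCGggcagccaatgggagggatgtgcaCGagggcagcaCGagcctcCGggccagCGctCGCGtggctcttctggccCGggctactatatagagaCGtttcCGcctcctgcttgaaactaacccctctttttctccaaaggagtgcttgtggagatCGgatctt
LHX4 (chr1:180230014-180230313, plus strand) encodes a LIM homeodomain factor and had both marks over the whole window in all 4 forms. EFNA3 (chr1:155078587-155078886, plus strand) encodes an ephrin-A ligand. Its window lay under H3K27me3 in TKO and WT and under H3K4me3 in WT, while neither mutant had a peak of either mark in it. APH1A (chr1:150268967-150269266, minus strand) encodes a subunit of gamma-secretase. It had H3K4me3 in all 4 forms, and its overlap with H3K27me3 in D1240A lay outside the window. COXFA4L2 (chr12:57240713-57241012, minus strand) had H3K4me3 in all 4 forms and H3K27me3 in F1295A. IGF2BP2 (chr3:185824993-185825292, minus strand), the gene of an RNA-binding protein, had H3K4me3 in all 4 forms and H3K27me3 in TKO. TXNIP (chr1:145996530-145996829, minus strand) encodes the thioredoxin-interacting protein and had H3K4me3 in D1240A, F1295A and WT and H3K27me3 in WT. The windows held 32 CpG in LHX4, 28 in EFNA3, 25 in APH1A, 17 in COXFA4L2, 38 in IGF2BP2 and 19 in TXNIP.

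Both marks met at few H3K4me3 peaks in any form, and WT had the most such peaks. In D1240A, 68 of 7712 H3K4me3 peaks overlapped H3K27me3, or 0.882% (Clopper-Pearson 95% interval 0.685 to 1.12). In F1295A 99 of 8239 did, or 1.20% (0.978 to 1.46), and in TKO 80 of 7396, or 1.08% (0.859 to 1.34). In WT 158 of 8140 did, or 1.94% (1.65 to 2.27). These intervals cover the counting error of peaks only. Seen from H3K27me3, the share of peaks that touched H3K4me3 was 3.11% of 2188 in D1240A, 4.61% of 2083 in F1295A, 1.36% of 5881 in TKO and 4.09% of 3790 in WT, so TKO had the longest H3K27me3 list and the smallest share. With every list of a mark brought to the same number of peaks, D1240A had 63 both-mark peaks, F1295A 89, TKO 36 and WT 91, so F1295A and WT were then nearly equal.

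Most overlaps were partial. H3K27me3 covered a median of 53.3% of the H3K4me3 peak in D1240A, 56.8% in F1295A, 55.5% in TKO and 61.6% in WT, and the H3K4me3 peak lay wholly inside H3K27me3 at 10 of 68, 19 of 99, 20 of 80 and 39 of 158 peaks. At 55, 76, 60 and 112 peaks in the same order of forms, the H3K4me3 peak crossed an edge of H3K27me3. The median overlap was 1990 bp in D1240A, 2791 bp in F1295A, 1597 bp in TKO and 2498 bp in WT. The smallest overlaps were 59, 27, 21 and 14 bp, and the nearest H3K4me3 peaks left out lay 5 bp from H3K27me3 in D1240A, 10 bp in F1295A, 2 bp in TKO and 12 bp in WT. Both-mark peaks were of lower rank in their list by total signal, at a median percentile of 34.3 in D1240A, 38.2 in F1295A, 36.6 in TKO and 33.5 in WT, and their median widths were 4301, 5277, 2942 and 3884 bp, against 3344, 3689, 2701 and 3283 bp for the other H3K4me3 peaks of the same lists. A wider peak can meet H3K27me3 more easily, so the widths belong to the rule.

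**Figure D1:**
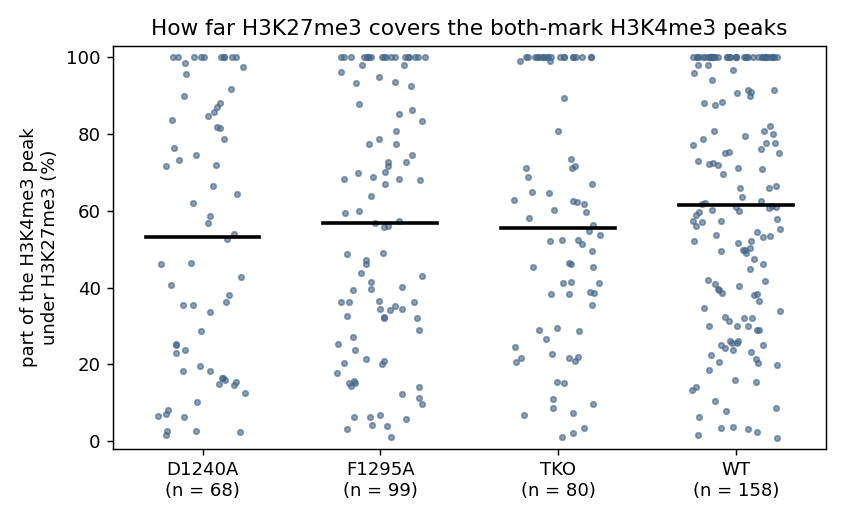
Share of each both-mark H3K4me3 peak that lies under H3K27me3, in percent, by form. Each point is a peak and the black bars are medians, from 53.3% in D1240A to 61.6% in WT, with points over the whole scale in every form.

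The regions differed in the forms that carried both marks, and combinations with a single form were the most frequent. Of 216 regions, 105 had both marks in 1 form, 56 in 2, 33 in 3 and 22 in all 4. Those in 1 form were 2 in D1240A, 20 in F1295A, 22 in TKO and 61 in WT. A further 20 regions had both marks in TKO and WT and in neither mutant, 19 in D1240A, F1295A and WT, 16 in F1295A and WT, and 10 in both mutants and in neither TKO nor WT. Set against WT, D1240A had both marks at 15 regions where WT did not and WT at 106 where D1240A did not, so 12.4% (7.11 to 19.6) of the differing regions were of D1240A. For F1295A the counts were 33 and 92, or 26.4% (18.9 to 35.0), and for TKO 26 and 104, or 20% (13.5 to 27.9). With equal peak numbers the D1240A share was 30% (21 regions against 49 in WT), the F1295A share 48.7% (37 against 39) and the TKO share 14.3% (11 against 66), so the distance of both mutants from WT depended on the length of the lists. These 3 comparisons share the WT lists.

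**Figure D2:**
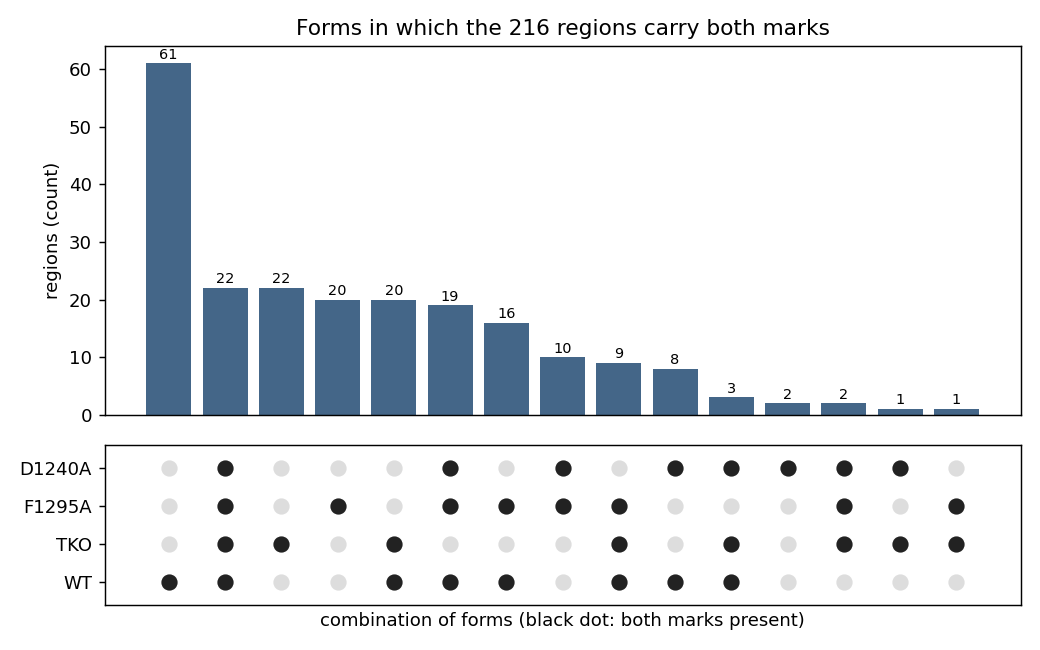
Number of regions with both marks for each combination of forms, shown by the black dots under each bar. WT alone is the tallest bar with 61 regions, and all 4 forms together have 22.

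H3K4me3 was called in all 4 forms at 145 of the 216 regions, against 84.4% of all merged H3K4me3 peaks, and H3K27me3 at 67, against 26.8% of all merged H3K27me3 peaks. Here and below, a mark at a region means a peak inside its bounds, while shares of merged peaks count each peak over its whole length. Where a form lacked both marks at a region of WT, the mark it lacked differed between the mutants and TKO. Of the 158 regions with both marks in WT, D1240A had both at 52, H3K4me3 alone at 75, H3K27me3 alone at 7, neither at 15, and both without overlap at 9. F1295A had both at 66, H3K4me3 alone at 83, H3K27me3 alone at 2, neither at 6 and both without overlap at 1. TKO had both at 54, H3K4me3 alone at 38, H3K27me3 alone at 39, neither at 13 and both without overlap at 14. The mutants thus mostly kept a call of H3K4me3 and had none of H3K27me3, while TKO lacked either mark about as often.

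**Figure D3:**
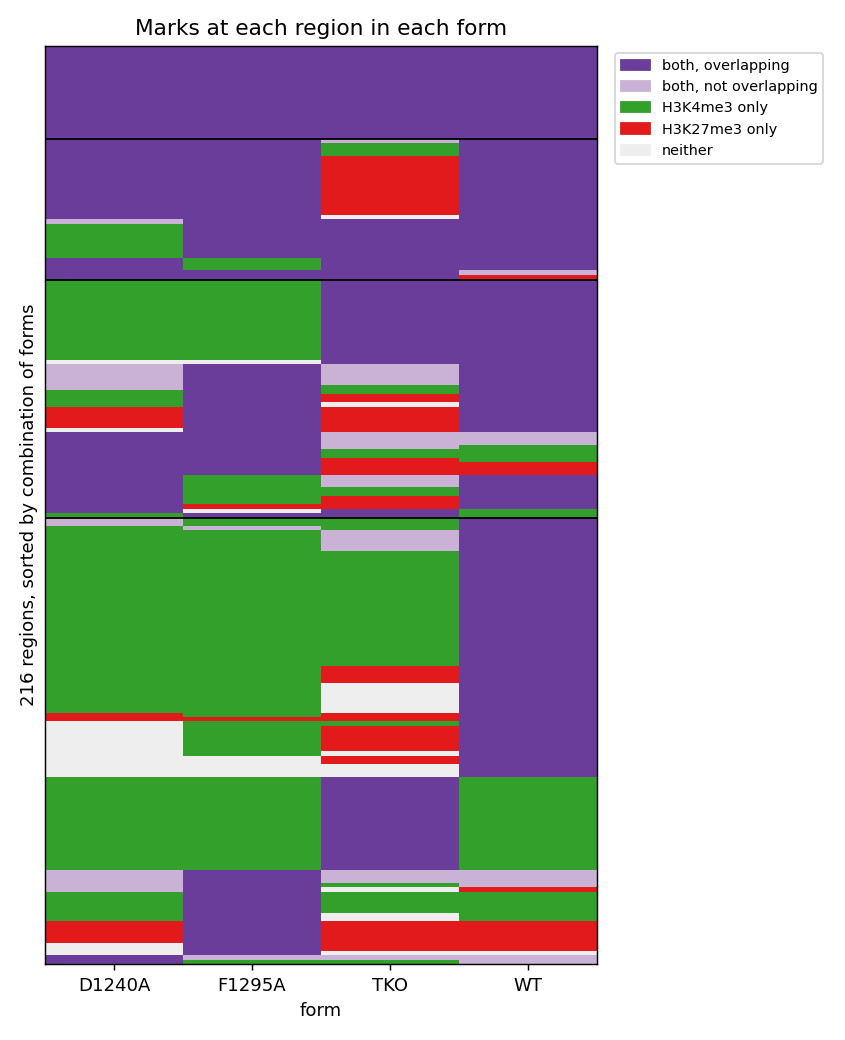
Marks at each of the 216 regions (1 line each) in D1240A, F1295A, TKO and WT, with black lines between regions that have both marks in 4, 3, 2 and 1 forms. Green blocks (H3K4me3 only) fill the mutant columns where TKO and WT or WT alone have both marks, and red blocks (H3K27me3 only) stand mostly in the TKO column.

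Set beside the other WT peaks, those with both marks lacked H3K27me3 in the mutants at a similar share over the whole list. They lacked H3K4me3 at a higher share in D1240A, F1295A and TKO alike, and the share was largest in TKO. Of the 155 WT H3K27me3 peaks that touched H3K4me3, 48.4% (40.3 to 56.5) had no H3K27me3 peak in D1240A and 49.0% (40.9 to 57.2) had none in F1295A, against 50.8% and 47.0% of the other 3635 WT peaks. In the stronger 50% of the WT H3K27me3 list the shares were 19.8% (12.2 to 29.5) against 19.1% for D1240A, and 25.3% (16.8 to 35.5) against 15.9% (14.2 to 17.6) for F1295A. In the weaker 50% they were 89.1% (78.8 to 95.5) against 81.9% for D1240A, and 82.8% (71.3 to 91.1) against 77.6% for F1295A. The stronger 50% held 91 of the 155 peaks and 1804 of the other 3635, so the whole-list shares compare sets of unlike strength. Of all WT H3K27me3 peaks, 50.7% had none in D1240A, 47.0% none in F1295A and 10.9% none in TKO. Of the 158 both-mark H3K4me3 peaks of WT, 32.9% (25.7 to 40.8) had no H3K4me3 peak in TKO, against 10.4% (9.77 to 11.1) of the other 7982, and 10.9% of all. Peaks of low signal are more often missing from another list, and both-mark peaks ranked low. Within the weaker 50% of the WT list the shares missing in TKO were 52.6% of 95 both-mark peaks (42.1 to 63.0) and 20.8% of 3975 others (19.5 to 22.0). In the stronger 50% they were 2 of 63 and 8 of 4007 peaks. For D1240A the shares without H3K4me3 were 13.9% (8.94 to 20.3) and 5.68%, against 5.84% of all WT peaks, and for F1295A 5.06% (2.21 to 9.73) and 1.63%, against 1.70% of all. In the weaker 50% they were 21.1% (13.4 to 30.6) and 11.3% for D1240A, and 6.32% (2.35 to 13.2) and 3.22% for F1295A. H3K27me3 peaks that touched H3K4me3 in WT were missing in TKO at 17.4% (11.8 to 24.3), against 10.6% of the others. Peaks near each other are not independent, and 1 library stands behind each H3K4me3 list. Differences in depth between the lists were not tested.

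**Figure D4:**
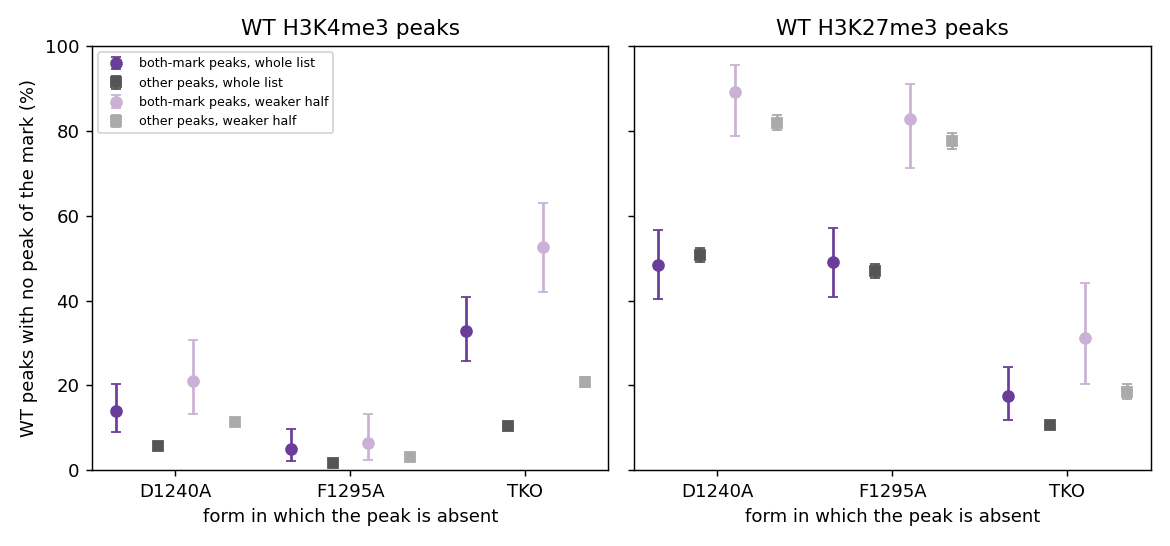
Share of WT H3K4me3 peaks (left) and WT H3K27me3 peaks (right) with no peak of the same mark in D1240A, F1295A or TKO, in percent, with Clopper-Pearson 95% intervals. Circles are peaks that overlap the other mark in WT, squares are all other WT peaks, and the pale symbols are the weaker 50% of the list by total signal. The H3K4me3 circles stand above their squares in each form, in TKO at 32.9% and 52.6% against 10.4% and 20.8%.

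The regions of the mutants are largely those of WT, set against the same TKO list, so their counts are no separate support. H3K4me3 was missing in TKO at 22 of 67 regions with both marks in D1240A (32.8%), against 6.91% of all D1240A H3K4me3 peaks, and at 39 of 99 in F1295A (39.4%), against 12.5%. Both marks were in WT too at 52 of the D1240A and 66 of the F1295A regions. At those without both marks in WT, H3K4me3 was missing in TKO at 4 of 15 in D1240A and 15 of 33 in F1295A. In the other direction, of the 80 regions with both marks in TKO, H3K4me3 was missing at 1 in D1240A, 2 in F1295A and 1 in WT, against 2.01%, 0.690% and 0.933% of all TKO H3K4me3 peaks. H3K27me3 was missing there at 51 in D1240A (63.8%), 46 in F1295A (57.5%) and 24 in WT (30%), against 65.6%, 62.5% and 38.4% of all TKO H3K27me3 peaks. The shares of regions count peaks inside the regions and the shares of all peaks count whole peaks, so they are not like for like.

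Where H3K4me3 peaks were present in both lists, their length moved with the form at members and non-members alike. Over WT both-mark peaks that kept H3K27me3, the length in the form over that in WT had a median of 1.05 in D1240A, 1.21 in F1295A and 0.737 in TKO. Over WT both-mark peaks without H3K27me3 in the form it was 1.00, 1.13 and 0.777, and over the other WT H3K4me3 peaks 1.00, 1.10 and 0.816.

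Of the 22 regions with both marks in every form, 16 lay at a gene. LHX4 had 6.05 kb under both marks in D1240A, 5.38 kb in F1295A, 3.80 kb in TKO and 4.17 kb in WT. DUSP4, which encodes a phosphatase of MAP kinases, had 4.96, 5.96, 3.70 and 5.14 kb in the same order, and in each form its H3K4me3 lay wholly under H3K27me3. Both genes had the smallest overlap in TKO. ITGA3, the alpha-3 integrin subunit of laminin receptors, had 3.46 kb in D1240A, 1.74 kb in F1295A, 1.42 kb in TKO and 2.84 kb in WT. The region at GLI1, the Hedgehog pathway factor, and INHBE, an inhibin beta subunit, had 1.42, 7.51, 0.986 and 5.25 kb. NTNG2, which encodes netrin-G2, had 1.68, 6.31, 1.38 and 1.90 kb, and SLC17A7, a vesicular glutamate transporter gene, had 3.27, 4.34, 0.600 and 2.90 kb. The NTNG2 region lay at the higher end of the gene record (132161689 to 132244526). The RefSeq table gives no start for NTNG2, so this may be the far end from its promoter. Over the 22 regions the overlap was longest in D1240A at 4, F1295A at 11, TKO at 1 and WT at 6, and shortest at 3, 1, 16 and 2 in the same order. An overlap cannot be longer than its H3K4me3 peak. Over the WT H3K4me3 peaks without both marks, the median length relative to WT was 1.00 in D1240A, 1.10 in F1295A and 0.816 in TKO. How far the overlaps follow this difference between whole lists was not tested. H3K27me3 peaks at the 22 regions had a median width of 17.0 kb in WT and stood at a median percentile of 81.5 in that list by total signal.

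The Polycomb genes CBX2 and CBX8 lie side by side on chromosome 17 and each had a region of its own. They encode the chromobox subunits of Polycomb repressive complex 1 that read H3K27me3. At CBX8 (chr17:79794862-79801873) both marks met in every form, over 1.86 kb in D1240A, 4.82 kb in F1295A, 2.08 kb in TKO and 1.69 kb in WT. At CBX2 (chr17:79776335-79781558) they met over 0.616 kb in D1240A, 1.40 kb in F1295A and 0.919 kb in WT, and TKO had H3K4me3 with the nearest H3K27me3 within 1 kb of the region. Next to CBX8 a region with no gene start (chr17:79806707-79815392) had both marks in F1295A and H3K27me3 alone in D1240A, TKO and WT.

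The 20 regions with both marks in TKO and WT and neither mutant differed by H3K27me3. At 19 of them H3K4me3 was present in all 4 forms and H3K27me3 in TKO and WT alone. The nearest H3K27me3 peak lay a median of 51.3 kb away in D1240A and 53.0 kb in F1295A, and within 5 kb at 2 regions in each. MYC, the growth-promoting transcription factor, had H3K4me3 over 7.56 kb in D1240A, 7.60 kb in F1295A, 5.82 kb in TKO and 7.60 kb in WT, and H3K27me3 over 0, 0, 4.16 and 4.63 kb. The nuclear receptor genes NR3C2 and NR4A3 and the gene of the secreted guidance protein SLIT1 had the same pattern, with 3.16, 3.17 and 3.28 kb under both marks in TKO and 4.75, 4.58 and 3.0 kb in WT. TMEM121, on chromosome 14, had 3.0 kb in TKO and 3.32 kb in WT, and the mutants had their nearest H3K27me3 44 kb away. EFNA3 was the exception, with no peak of either mark in the mutants and 2.43 kb under both marks in TKO and 9.23 kb in WT. In WT, H3K27me3 at the 20 regions had a median width of 7.34 kb and a median percentile of 43.1, lower than at the regions of every form. Peaks of low signal are more often missing from another list, so the rank follows in part from the choice of both sets. H3K27me3 at MYC stood at percentile 13.0 in TKO and 36.1 in WT. The values were 35.0 and 9.68 at NR3C2, 21.6 and 46.5 at NR4A3, 30.0 and 22.9 at SLIT1, 12.7 and 64.4 at TMEM121, and 93.1 and 96.2 at EFNA3. The H3K27me3 lists of the mutants were shorter, with 2188 peaks in D1240A and 2083 in F1295A, against 5881 in TKO and 3790 in WT. Bringing the lists to equal peak numbers removes the weakest peaks of TKO and WT. How many of the 20 regions would then be left was not counted, so their difference from the mutants may depend on list length.

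At the 61 regions of WT alone, H3K27me3 was called in every form less often than H3K4me3. H3K4me3 was in all 4 forms at 35 of them, against 84.4% of all merged H3K4me3 peaks. H3K27me3 was in all 4 forms at 1, against 26.8% of all merged H3K27me3 peaks. This was the region of MC1R and TUBB3, where H3K4me3 was called in WT alone. At 25 regions neither mark was in all 4 forms. A region where H3K4me3 met H3K27me3 in another form would not be of WT alone, so these counts follow in part from the choice. With equal peak numbers 30 regions of WT alone were left. At ICAM5, a neural adhesion molecule, H3K4me3 covered 4.72 kb in D1240A, 4.83 kb in F1295A, 4.43 kb in TKO and 8.25 kb in WT, and both marks met over 5.15 kb in WT. At NOTCH1, the Notch receptor, H3K4me3 covered 4.69, 4.71, 4.13 and 4.71 kb, and both marks met in WT over 1.51 kb. The laminin alpha-5 gene LAMA5, with 1.79 kb, and CXXC5, the gene of a CpG-binding zinc finger protein, with 5.20 kb, had both marks in WT and H3K4me3 alone in the other forms. TXNIP had 5.79 kb in WT, H3K4me3 alone in both mutants and H3K27me3 alone in TKO. F11R, a junctional adhesion molecule, had 1.91 kb in WT, neither mark in D1240A, H3K4me3 alone in F1295A and H3K27me3 alone in TKO.

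At all 22 regions of TKO alone, H3K4me3 was called in every form and H3K27me3 in TKO only. With H3K4me3 in every form, the choice of these regions leaves little room for H3K27me3 in the other forms. The nearest H3K27me3 peak lay a median of 1181 kb away in D1240A, 1178 kb in F1295A and 313 kb in WT, and in WT 2 of 22 lay within 5 kb. The TKO H3K27me3 list was the longest, and with equal peak numbers 5 regions of TKO alone were left. At IGF2BP2, H3K4me3 covered 3.39 kb in each form and H3K27me3 the whole of it in TKO. CDC42EP3, a gene of an effector of CDC42, had 2.5 kb under both marks in TKO, the Wnt receptor gene FZD1 2.36 kb, CIART, a gene of the circadian clock, 2.21 kb, the glutamate receptor gene GRM8 1.79 kb, and NBPF1 1.63 kb. VCAN, which encodes the matrix proteoglycan versican, had 1.44 kb. NBPF1 belongs to a family of near-identical copies, so its reads may be shared with them. H3K27me3 at these regions was narrow and weak within the TKO list, with a median width of 5.51 kb and a median percentile of 29.3. Weak peaks are more often missing from another list, so these values follow in part from the choice of regions of TKO alone.

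TKO differed by H3K4me3 at most of the 19 regions with both marks in D1240A, F1295A and WT. At 14 of them H3K27me3 was called in all 4 forms and H3K4me3 was not called in TKO. SEMA6C, a transmembrane semaphorin gene, had H3K4me3 over 6.62 kb in D1240A, 5.70 kb in F1295A and 4.66 kb in WT, and 0 kb in TKO, with H3K27me3 over 6.72 kb in each form. The semaphorin receptor gene PLXNA2 had H3K4me3 over 3.90, 4.97 and 3.43 kb in D1240A, F1295A and WT, and the Wnt receptor gene FZD4 over 3.06, 3.93 and 3.82 kb, again with 0 kb in TKO. In WT, H3K4me3 at the 19 regions stood at a median percentile of 23.5 (quartiles 8.86 and 34.9). It stood at 13.1 at SEMA6C, 38.0 at PLXNA2 and 30.6 at FZD4. Peaks of low signal are more often missing from another list, and the TKO H3K4me3 list was the shortest, with 7396 peaks. At FGFR3 and SDC1, H3K27me3 was called in every form and both marks met in F1295A, over 7.13 and 3.20 kb, and in WT, over 6.43 and 2.80 kb. By total signal, their H3K4me3 peaks stood at percentiles 22.3 and 18.2 of the F1295A list. In the WT list they stood at 2.49 and 9.80.

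Regions of the mutants differed by either mark. DLL4, a Notch ligand, and KCNH2, a potassium channel gene, carried H3K27me3 in every form but H3K4me3 just in the mutants, over 5.57 and 9.92 kb in D1240A and 6.22 and 8.28 kb in F1295A. The DLL4 peak stood at the percentile 0.947 of the D1240A list and 18.6 of the F1295A list by total signal. Of the 10 regions of both mutants alone, 3 had H3K27me3 in all forms with H3K4me3 not in all, and 3 the reverse. Of the 20 regions of F1295A alone, 6 had H3K4me3 in all forms with H3K27me3 not in all, and 5 the reverse, among these last SFTPC and BMP1 under a shared region of 4.74 kb. The H3K4me3 peak of that shared region stood at percentile 0.898 of the F1295A list. SFTPC and BMP1 were counted by an end of their records, as no start is given. A region of F1295A alone at NXPH4, SHMT2, COXFA4L2 and STAC3 had 10.9 kb under both marks, and the nearest H3K27me3 lay 1.90 kb away in D1240A, 108 kb in TKO and 0.752 kb in WT. NXPH4 also lay at a region with both marks in D1240A, F1295A and WT. D1240A alone had 2 regions, at APH1A with 0.823 kb and at YTHDF1 with 0.091 kb under both marks. H3K27me3 lay inside the region without touching H3K4me3 in the 3 other forms at APH1A, and in WT at YTHDF1.

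The shortest of the 216 regions lay inside NSD2 itself. At chr4:1978176-1979218 (GRCh38), within the NSD2 record (1871393 to 1982192) and near its higher end, F1295A had an H3K4me3 peak of 1043 bp and an H3K27me3 peak of 263 bp inside it. D1240A, TKO and WT had no peak of either mark there, and the H3K4me3 peak at the lower end of the record, where NSD2 starts, was called in all 4 forms. The H3K4me3 peak had the highest signal of all 8239 peaks in the F1295A list, 4374 against a median of 494, and was the narrowest. The H3K27me3 peak ranked 5 of 2083 by highest signal, 1279 against a median of 96, and was the narrowest but 1, against a median width of 12792 bp. The cause of this site was not tested.

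Gene starts lay near most regions, though less often than for H3K4me3 peaks at large. Within 1 kb of 167 of the 216 regions (77.3%) lay the start of a protein-coding gene, or either end where the RefSeq table gives no start, against 87.4% of all merged H3K4me3 peaks. Of the other regions, 30 lay over a gene record and 19 outside. The 209 genes at regions were 1.05% of 19974 protein-coding genes and 2.36% of the 8853 with H3K4me3 in at least 1 form. Of 723 genes in the 19 lists of gene families, 29 were at a region, which is 4.01% of them and 13.1% of the 221 with H3K4me3. The lists were chosen with earlier results of these data known.

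Among the lists, axon guidance held the most members at regions, followed by Notch, BMP and FGF signalling and the matrix list with 4 each. EFNA3, SEMA6C, PLXNA2, NTN3, NTNG2 and SLIT1 were 6 of 69 guidance genes, of which 19 had H3K4me3, and they had both marks at 4 genes in D1240A, 3 in F1295A, 3 in TKO and 6 in WT. NTNG2 was counted by the higher end of its record, as no start is given. NOTCH1, DLL4, FGFR3 and NOG, which encodes the BMP antagonist noggin, were 4 of 39, of which 12 had H3K4me3. LAMA5, AGRN, THBS3 and VCAN were 4 of 64 matrix genes, and ICAM5, NECTIN2 and F11R 3 of 37 immunoglobulin-type adhesion genes. HOXB7 and HOXB8, under a shared region, were 2 of 39 HOX genes, with 2.34 kb under both marks in F1295A and 1.36 kb in WT, and in D1240A and TKO H3K4me3 alone with H3K27me3 within 5 kb. The Wnt list had FZD1 and FZD4 (2 of 44), the integrin list ITGA3 (1 of 26), the cell cycle list MYC (1 of 20), the plasma cell list SDC1 (1 of 15), the channel list KCNH2 (1 of 46) and the SOX, GATA, T-box and other lineage factor list GLI1 (1 of 74). None of the 59 homeobox and PAX genes outside HOX, 38 cadherins and protocadherins, 42 TNF family genes, 25 B cell genes, 22 T, NK and myeloid genes, 16 stromal genes and 20 housekeeping genes was at a region. H3K4me3 was present at 13 of the homeobox and PAX list and 20 of the housekeeping list. With 2.36% of all genes with H3K4me3 at a region, lists of this size can hold none. LHX4, a homeobox gene at a region, was not in the homeobox and PAX list. Of the genes always looked up, CD38 had neither mark at its start in any form, IRF4, PRDM1, XBP1, CCND2, CDKN2A and NSD2 had H3K4me3 and no H3K27me3 there in any form, and PAX5 and CCND1 had H3K27me3 in WT only and no H3K4me3. BCL6 had a region of WT inside its record and away from its start.

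Promoter sequence, which the rule did not use, was close to that of other H3K4me3 promoters. The 160 promoters at regions with a sequence held a median of 27 CpG in 300 bases (quartiles 19 and 36), against 28 (21 and 36) at 7165 promoters with H3K4me3 outside the regions, 13 (6 and 30) at 1115 with H3K27me3 alone and 11 (3 and 25) at 7372 with neither mark. The ratio of observed to expected CpG had medians of 0.796, 0.875, 0.487 and 0.493, and G+C of 68.8%, 66.3%, 63.7% and 57.3%. Promoters with both marks in TKO and WT alone had a median of 30.5 CpG (22 genes), those in D1240A, F1295A and WT alone 23 (13 genes), and those in every form 24 (12 genes).

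**Figure D5:**
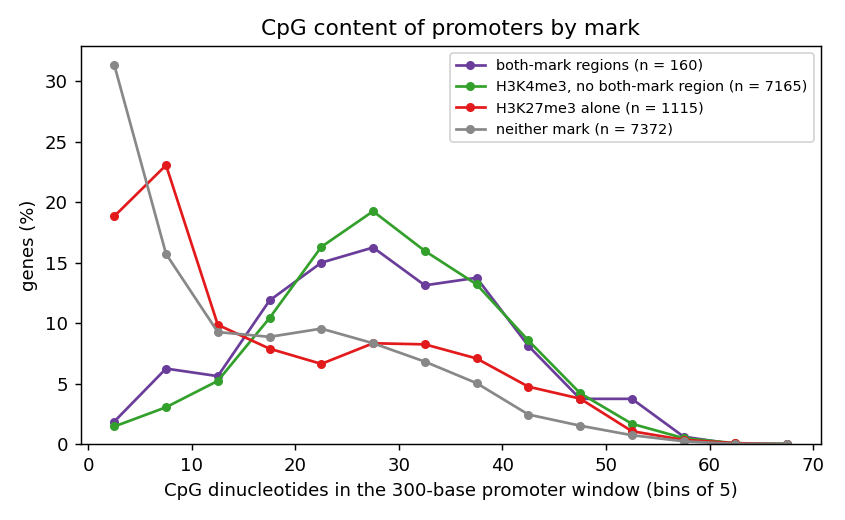
Percent of genes (vertical axis) by number of CpG dinucleotides in the 300-base promoter window, in bins of 5, for genes at both-mark regions, other genes with H3K4me3, genes with H3K27me3 alone and genes with neither mark. The curve of the 160 genes at regions runs with that of other H3K4me3 genes, with medians of 27 and 28, and lies to the right of the curves of the other groups.

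Regions were unevenly spread over chromosomes. Chromosome 1 held 45 of 216 (20.8%), against 10.5% of all merged H3K4me3 peaks and 16.5% of all merged H3K27me3 peaks, and the 12 Mb that follow its position 150 Mb held 22 (10.2%), against 1.54% and 2.61%. That part held 3 of the regions of all 4 forms. Chromosome 17 held 20 (9.26%), against 5.73% and 7.10%. Chromosomes 13, 21 and X held 0 of 216, which allows a share of up to 1.39% each, against 1.76%, 1.04% and 2.53% of all merged H3K4me3 peaks. Of all merged H3K27me3 peaks they held 0.7445%, 1.14% and 0.658%, each under that limit.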

How the data were processed

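H3K4me3 and H3K27me3 were profiled by ChIPmentation in 4 forms. The submitters' processing notes name the build GRCh38 and, as tools, SEACR 1.3, Bowtie2 2.4.5, Trimmomatic 0.36 and FastQC 0.11.4. How peak calling was set, against which control, and how the 2 H3K27me3 samples of a form were combined is not stated in the labels. Each deposited list gives a total signal (coverage) per peak and a highest signal, which for the H3K27me3 lists is treated as a score of the authors' caller, both with unknown scaling. Signal was used only to rank or filter peaks within a list. Depth is unknown because read totals are absent from the lists. The IgG samples were not analysed here.

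Overlap of at least 1 bp, merging and counts were computed in Python 3.11.15 with numpy 2.4.6, pandas 2.3.3 and scipy 1.17.1, and the steps were tested on simulated data. Shares have exact (Clopper-Pearson) 95% intervals. RefSeq promoters (GRCh38.p14) gave the start of 15812 of 19974 protein-coding genes, and either end of the record was used for the other 4162, which may be the far end from the promoter. Members and gene lists were chosen with earlier results of these data known. Genes were named by rule: for regions of every form, of WT and neither mutant, and of each form alone, the 6 with the most bases under both marks and up to 3 members of every list. FGFR3, SDC1 and 10 other genes were always looked up. Genes of other combinations (FZD4, SEMA6C, PLXNA2, DLL4, KCNH2, HOXB7, HOXB8 and CBX2 among them) were named after their values were seen. Alternatives changed the overlap, list length, peak width, merging, gene window and the part of chromosome 1. A result at 1 gene is not reported here.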

Additional observations from a re-analysis of the deposited data

How the results depend on the processing

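No paired analysis was possible because both H3K27me3 samples of a form stand in a single list and H3K4me3 has 1 sample per form, so no replicate could be left out or paired. Of 104 alternative values, 71 stayed within 1.5 times the reported count or within the reported interval, 33 moved further, and 0 changed the direction of a comparison with WT. A change of direction could be seen only for the shares of differing regions against WT, as the other values are counts. Where 50% of the H3K4me3 peak had to be covered, D1240A, F1295A, TKO and WT had 35, 52, 46 and 101 both-mark peaks in 136 regions, 99 of them at a gene, with 7 regions in all 4 forms, 12 in F1295A alone and 14 in TKO alone. With the stronger 50% of each list the peaks were 12, 20, 14 and 37 in 52 regions, with 4 in all 4 forms and 34 in 1 form, of which 1, 6, 5 and 22 were in D1240A, F1295A, TKO and WT. With equal peak numbers TKO had 36 peaks and WT 91, the regions were 139, and 58 were in 1 form, with 5 in D1240A, 5 in TKO and 30 in WT. The share of differing regions was then 30% for D1240A and 48.7% for F1295A against WT. Without the 12 Mb of chromosome 1 from 150 Mb, 1 region of D1240A alone was left. An alternative chosen after seeing the data counted H3K27me3 within 1 kb as shared, and gave 123 both-mark peaks in TKO, 34 regions in TKO alone and 35 in all 4 forms. The causes were not tested. Peaks at least 1 kb wide and merging within 1 kb gave the reported value for every result. These settings had nothing to change, and their values are counted among the 71. A gene window of 2.5 kb and whole gene records moved none of these values past these limits.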
